A study of Homo sapiens with 6 samples.

Results

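Chromosome 19 carries the densest groups of zinc finger genes in the human genome. The genes described here are the protein-coding genes of chromosome 19 in GENCODE whose symbol is ZNF followed by digits alone, a rule that reads only the annotation. There were 240 of them among 20176 protein-coding genes of the genome, 83 on the short (p) arm and 157 on the long (q) arm. They were set beside the 1231 other protein-coding genes of chromosome 19 and the 236 ZNF genes of the same kind of symbol on other chromosomes.

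The accessibility data were 6 bulk ATAC-seq libraries of GM12878, a lymphoblastoid line made from human B cells, which were all fixed in 1% paraformaldehyde, transposed for 30 min and reverse crosslinked overnight at 65 °C, with no antibody. ATAC-seq uses the Tn5 transposase to place sequencing adapters into open DNA, so that reads pile up as peaks at accessible sites. The libraries differed in how the crosslinks were reversed, with 2 replicates for each of 3 protocols, called here SDS (an SDS-containing buffer, then DNA purification), SDS-free purified (a buffer lacking SDS, then purification) and SDS-free unpurified (that buffer, with PCR directly in the mixture). All libraries came from the same cell line and nothing says that replicates were separate cultures, so p-values measure only the spread between these libraries, which may be technical. The deposited lists held 37654 and 34826 peaks for SDS, 38023 and 30136 for SDS-free purified, and 36252 and 34438 for SDS-free unpurified, of which 819 to 939 per library lay on chromosome 19.

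Most of these genes encode proteins with arrays of C2H2 zinc fingers, each finger reading a few bases of DNA, and many also carry a KRAB domain. The KRAB domain binds TRIM28, which brings the histone methyltransferase SETDB1 and HP1 proteins to the bound DNA, and many KRAB zinc finger proteins recognise transposable elements. The genes arose largely by tandem duplication, and so stand side by side with similar promoters. In many human cell types the coding parts of the zinc finger genes carry H3K9me3, a mark of compact chromatin, while their promoters stay active.

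The label of the cells was checked by peaks within 1 kb of gene starts, but these lists did not settle it. Of 10 B cell genes, MS4A1 (CD20), CD74 and EBF1 had a peak in all 6 libraries, 4 had one in some libraries, among them CD79A in 4, and CD22, BLK and POU2AF1 had none, so that 41.7% were called on average, not above the 45.9% to 49.3% of all protein-coding genes per library. Of 5 T cell genes, CD8A had a peak in all 6 libraries and the CD3 genes and CD247 had none. None of the 4 erythroid, 4 epithelial and 2 liver genes had a peak in any library, HBB and ALB included.

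The 6 promoters below carry the main contrasts of the data. They are the 200 bases before the gene start on the gene strand, read from hg19, with each CpG in capitals. The windows are chr19:21203240-21203439 on the plus strand for ZNF430, chr19:21579721-21579920 on the plus strand for ZNF493, chr19:22193752-22193951 on the minus strand for ZNF208, chr19:23185979-23186178 on the minus strand for ZNF728, chr19:57702668-57702867 on the plus strand for ZNF264 and chr19:53758152-53758351 on the minus strand for ZNF677. ZNF430, ZNF493 and ZNF264 had a promoter peak in all 6 libraries and ZNF208, ZNF728 and ZNF677 in none. They were picked for display after their calls were seen.
ZNF430: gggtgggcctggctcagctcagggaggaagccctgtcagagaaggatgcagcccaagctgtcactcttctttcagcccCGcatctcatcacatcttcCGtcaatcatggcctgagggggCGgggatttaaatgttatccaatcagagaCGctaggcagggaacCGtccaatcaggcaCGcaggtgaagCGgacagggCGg
ZNF493: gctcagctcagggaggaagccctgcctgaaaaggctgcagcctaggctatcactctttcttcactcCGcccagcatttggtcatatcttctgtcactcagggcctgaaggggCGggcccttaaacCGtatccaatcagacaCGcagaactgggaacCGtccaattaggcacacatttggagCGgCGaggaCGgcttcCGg
ZNF208: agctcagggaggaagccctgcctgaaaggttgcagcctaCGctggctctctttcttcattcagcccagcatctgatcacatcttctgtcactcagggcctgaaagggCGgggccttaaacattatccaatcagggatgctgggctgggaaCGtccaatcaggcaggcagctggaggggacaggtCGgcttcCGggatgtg
ZNF728: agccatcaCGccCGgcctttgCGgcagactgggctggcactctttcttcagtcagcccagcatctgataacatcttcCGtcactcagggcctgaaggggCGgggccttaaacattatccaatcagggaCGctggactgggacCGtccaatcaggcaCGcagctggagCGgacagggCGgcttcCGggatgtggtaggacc
ZNF264: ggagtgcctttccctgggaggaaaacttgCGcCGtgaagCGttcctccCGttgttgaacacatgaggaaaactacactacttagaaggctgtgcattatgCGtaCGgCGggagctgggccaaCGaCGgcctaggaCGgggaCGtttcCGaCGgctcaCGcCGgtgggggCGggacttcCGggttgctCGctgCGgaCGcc
ZNF677: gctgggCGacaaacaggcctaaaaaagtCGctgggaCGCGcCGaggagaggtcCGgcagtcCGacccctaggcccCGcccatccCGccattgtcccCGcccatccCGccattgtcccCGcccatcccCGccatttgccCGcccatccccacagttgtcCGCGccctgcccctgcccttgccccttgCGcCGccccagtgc

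The first 4 are promoters of 1 cluster on the p arm and resemble each other. ZNF208, without a peak, and ZNF493, with one, were identical at 165 of 196 aligned positions (84.2%), with a longest shared run of 27 bases. ZNF728, also without a peak, was identical to ZNF493 at 79.1% of 187 positions, which is close to the 79.4% between the called pair ZNF430 and ZNF493. The most alike of the 4 were the uncalled ZNF208 and ZNF728, at 86.2% of 195 positions with a shared run of 32 bases. The number of CpGs in these 200 bases was 8 in ZNF430, 9 in ZNF493, 5 in ZNF208 and 11 in ZNF728. On the q arm, ZNF264 with a peak held 20 CpGs and ZNF677 without one held 18.

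Promoters of the chromosome 19 ZNF genes were accessible more often than those of their neighbours on the chromosome. A promoter was called where a peak overlapped the 1 kb on either side of the gene start by at least 1 bp. In the SDS libraries 148 and 143 of the 240 genes were called (61.7% and 59.6%), in the SDS-free purified libraries 156 and 148 (65.0% and 61.7%), and in the SDS-free unpurified libraries 156 and 152 (65.0% and 63.3%). Over all protein-coding genes, the percentage called in the same 6 libraries was 47.5, 45.9, 49.3, 46.3, 48.9 and 48.7. The ZNF genes lay above this background in each library.

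**Figure D1:**
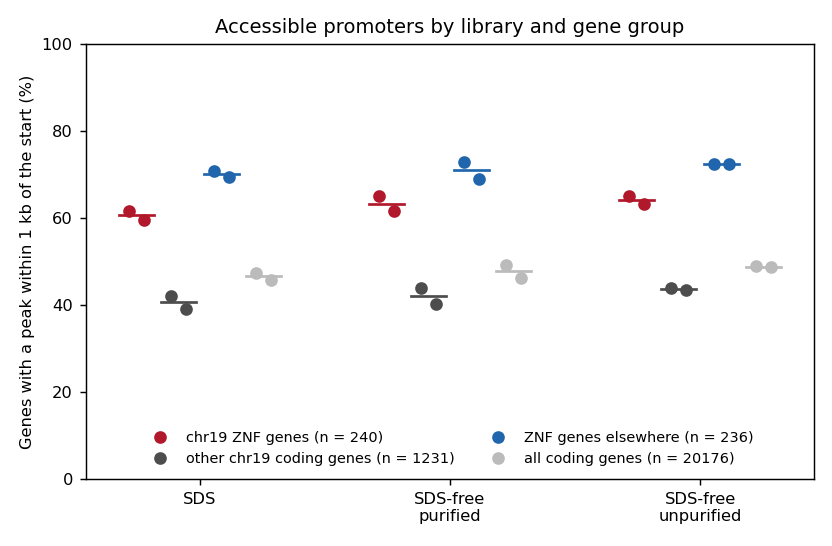
Percentage of genes with a peak within 1 kb of the gene start (y axis) in each of the 6 libraries, by protocol (x axis); points are libraries and bars the mean of 2. In every library the 240 chromosome 19 ZNF genes (red, 59.6% to 65.0%) lay between the 1231 other genes of the chromosome (dark grey) and the 236 ZNF genes elsewhere (blue).

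The mean over the 6 libraries was 62.7% ± 2.14 (SD, n = 6) for the chromosome 19 ZNF genes and 42.1% ± 2.02 for the other genes of the chromosome. The difference was 20.6 percentage points, with a range of 19.6 to 21.5, and was in the same direction in 6 of 6 libraries (exact two-sided sign-flip permutation test, p = 0.03125, adjusted p = 0.03125 over 5 such comparisons, which is the smallest that 6 libraries can give). ZNF genes on other chromosomes were called more often still, at 71.2% ± 1.65. The difference of the chromosome 19 ZNF genes from them was −8.48 percentage points, lower in 6 of 6 libraries (same exact permutation test, adjusted p = 0.03125). It shrank to −4.89 with any protein-coding transcript start and to −3.03 with canonical transcript starts, which were chosen after seeing the data. Among genes with a CpG-rich start, also chosen after seeing the data, the difference from ZNF genes elsewhere was −8.91 (70.6% against 79.5%). Among the same kind of genes the difference from the other genes of chromosome 19 was −0.401 percentage points, as described below.

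The calls were shared between libraries. A promoter peak was present in all 6 libraries for 112 ZNF genes (46.7%, background 40.4% of all protein-coding genes), in 1 to 5 libraries for 61 (25.4%, background 14.1%) and in no library for 67 (27.9%, background 45.5%). Among the other genes of chromosome 19, 413 (33.5%) were called in all 6 libraries and 631 (51.3%) in none. Genes called in some libraries had weaker peaks. A peak near the threshold of peak calling is more easily missed in a library, so this is partly built into the grouping. Means were taken over the libraries that called the gene. The mean number of reads at the summit, which the fold enrichment and p-value of a peak give, had a median of 15 in the 61 genes and of 24.7 in the 112 genes, with ranges of 11.7 to 23.2 and 16 to 62.2.

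The promoter peaks were narrow and close to the start. The strongest peak of a called ZNF gene had a median width of 454 to 556 bp per library, and 79.7% to 87.2% of the summits lay within 200 bp of the gene start, against 60.4% to 64.7% in the other genes of the chromosome. Peak coverage was highest 50 bp before the start, where a peak covered 58.1% of the ZNF genes and 33.1% of the other genes. The median fold enrichment over the local background was 7.19 in the ZNF genes and 6.63 in the others, higher in 6 of 6 libraries (difference 0.561, SD 0.251, exact two-sided sign-flip permutation test, adjusted p = 0.03125). The reads at the summit went the other way, with medians of 20 to 24 in the ZNF genes and 24 to 29 in the others.

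**Figure D2:**
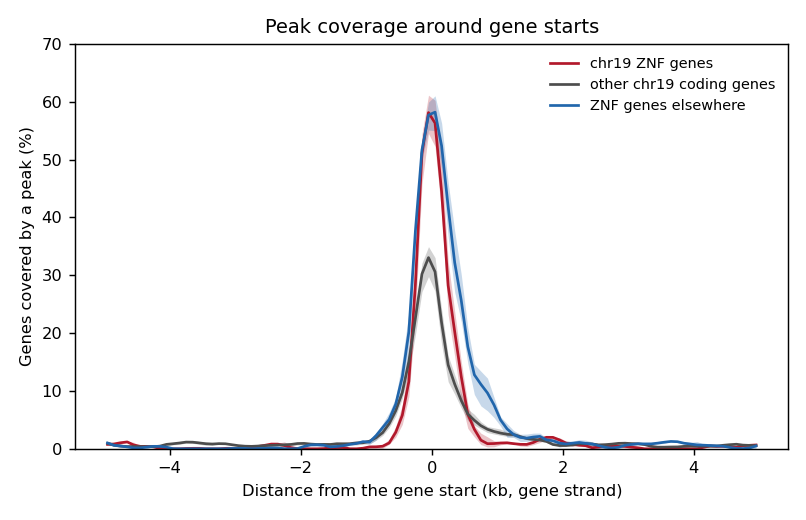
Percentage of genes covered by a peak (y axis) in 100 bp bins by distance from the gene start (x axis, kb on the gene strand); lines are means of the 6 libraries and bands their range. Coverage at chromosome 19 ZNF genes (red) reached 58.1% at the start and was low beyond 1 kb, and ZNF genes elsewhere (blue) had a wider shoulder after the start.

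The strongest promoters were ZNF787, ZNF430, ZNF724, ZNF493, ZNF66, ZNF8, ZNF160, ZNF431, ZNF527 and ZNF91, by the mean −log10 q of their peaks. ZNF787, on the q arm, had 55 and 52 reads at the summit in the SDS libraries, 66 and 58 in the SDS-free purified ones, and 62 and 80 in the SDS-free unpurified ones. ZNF430, on the p arm, had 52, 49, 64, 55, 55 and 55 reads in the same order of libraries. All 6 libraries of both genes lay far above the weakest promoter peaks, which had 9 to 12 reads.

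Genes of known function were called to different degrees. ZNF91, which silences SVA retrotransposons, had 40, 36, 43, 45, 42 and 35 reads at its summit, a narrow range. ZNF93, a repressor of L1 retrotransposons, had a peak with 16 to 28 reads in 5 libraries and none in SDS replicate 1. ZNF808 was called in all 6 libraries with 28 to 41 reads, and ZNF274, which binds the ends of zinc finger genes themselves, with 14 to 29. ZNF568 was called in 3 libraries, by the peak it shares with ZNF829. ZNF331 had no peak at the start of its gene record, although a start of another of its coding transcripts had one in all 6 libraries.

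Along the chromosome, 228 genes fell into 10 clusters, which were defined as runs of at least 5 of these genes with neighbouring starts at most 500 kb apart, and 12 were scattered. The share of members with a promoter peak, as the mean of 6 libraries, was 66.7% in cluster 1 (ZNF554 to ZNF77, 5 genes), 53.8% in cluster 2 (ZNF414 to ZNF846, 13 genes), 50.7% in cluster 3 (ZNF653 to ZNF490, 25 genes) and 57.7% in cluster 4 (ZNF101 to ZNF254, 37 genes over 4.44 Mb), which are those of the p arm. On the q arm it was 90.0% in cluster 5 (ZNF302 to ZNF792, 5 genes), 58.3% in cluster 6 (ZNF146 to ZNF573, 24 genes), 69.6% in cluster 7 (ZNF575 to ZNF180, 23 genes), 59.4% in cluster 8 (ZNF175 to ZNF331, 39 genes), 59.4% in cluster 9 (ZNF628 to ZNF835, 16 genes) and 80.5% in cluster 10 (ZNF264 to ZNF446, 41 genes). Among clusters of over 5 genes, cluster 10 was the most accessible, and its range of 73.2% to 82.9% over the libraries overlapped that of cluster 7 alone, which reached 82.6% in 1 library. Of the 12 scattered genes 6 were called in every library and 6 in none.

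**Figure D3:**
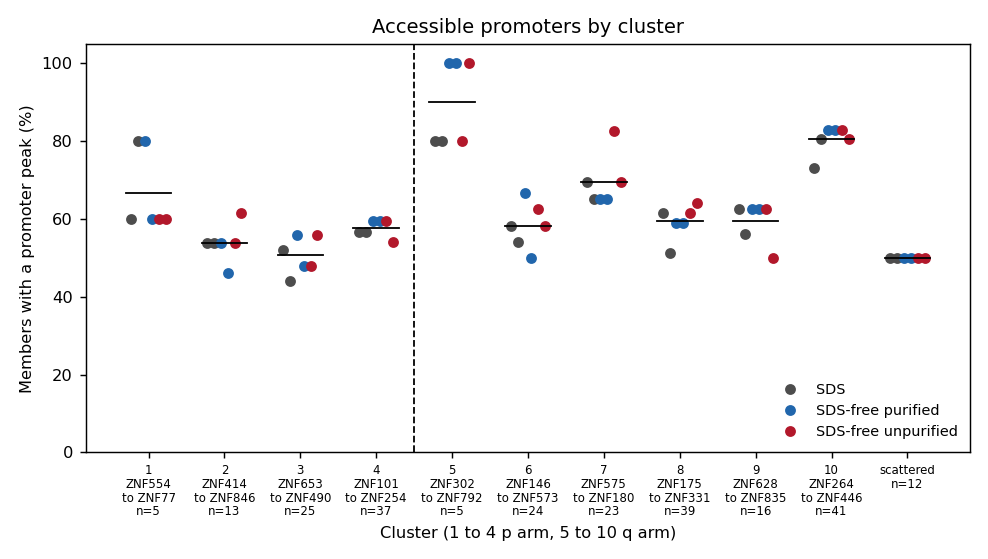
Percentage of cluster members with a promoter peak (y axis) for the 10 clusters and the scattered genes (x axis, with the number of genes); points are the 6 libraries coloured by protocol and bars their mean. Cluster 10 lay at 73.2% to 82.9%, and clusters 2, 3 and 4 of the p arm at or under 61.5%.

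The p arm had a lower share of accessible ZNF promoters than the q arm. It was 55.8% ± 1.81 (SD, n = 6 libraries) on the p arm and 66.3% ± 2.65 on the q arm, a difference of −10.5 percentage points with a range of −14.6 to −8.20, lower on the p arm in 6 of 6 libraries (exact two-sided sign-flip permutation test, adjusted p = 0.03125). With any protein-coding transcript start counted, the shares were 60.2% and 78.2%, a difference of −18.0. The other protein-coding genes were ordered the other way, with 47.3% ± 2.78 on the p arm and 37.9% ± 1.45 on the q arm. A single block of 10 neighbouring genes in cluster 4 held 10 of the 29 p arm genes without a call. With these 10 left out, a choice made from the calls themselves and so not tested, the p arm share was 63.5% ± 2.06.

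This block ran from ZNF208 to ZNF730, through ZNF257, ZNF676, ZNF729, ZNF98, ZNF492, ZNF99, ZNF723 and ZNF728. Not a single peak of any of the 6 libraries lay in the 1.40 Mb of chr19:22034979-23432748, which holds the starts of these 10 genes and of no other protein-coding gene. Outside the centromeric gap it was the second longest stretch without a peak on chromosome 19, after one of 1.57 Mb that holds the start of TSHZ3 alone. The stretch ended on both sides at the promoter of another ZNF gene. On one side stood ZNF43, which had 12, 13 and 15 reads at its summit in the SDS-free purified libraries and SDS-free unpurified replicate 1 and no peak in the other 3. On the other side stood ZNF724, among the strongest, with 60, 40, 56, 42, 54 and 53 reads in the order of libraries given above.

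The same cluster held a run of the opposite kind. From ZNF66 to ZNF493, 8 neighbouring genes over 0.621 Mb (ZNF66, ZNF85, ZNF430, ZNF714, ZNF431, ZNF708, ZNF738 and ZNF493) had a promoter peak in all 6 libraries. Cluster 4 held 6 of the 10 strongest promoters, and its genes called in all 6 libraries had a median −log10 q of 21.7, against 10.8 to 16.5 in the other clusters. CpG content was alike in both runs. The ratio of observed to expected CpG within 500 bp of the start had a median of 0.544 (range 0.422 to 0.630) in the 10 uncalled genes and of 0.520 (range 0.457 to 0.555) in the 8 called genes. Of the 75-base words in the whole uncalled run 95.2% occurred once in the genome, against 97.3% in the called run, and the part of repeated sequence in the calls was not tested.

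**Figure D4:**
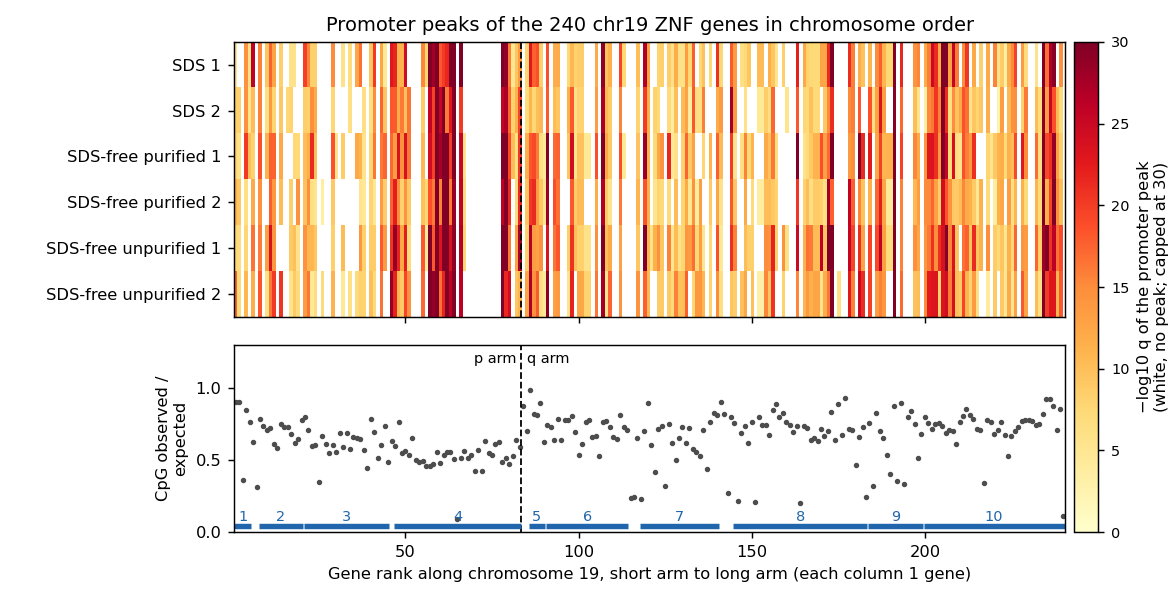
Top, −log10 q of the promoter peak for the 240 genes in chromosome order (x axis, gene rank) in the 6 libraries (rows; white, no peak; colours capped at 30); bottom, CpG observed over expected at each gene start, with the 10 clusters as numbered blue bars and the arms parted by a dashed line. In cluster 4 a dark run of 8 genes called in all libraries stands close before a white block of 10 genes called in none, while CpG values stay near 0.5 in both.

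The q arm held the longest run of called ZNF genes, 10 that follow each other among the ZNF genes, with 7 other protein-coding genes between them, from ZNF264 to ZNF772 (ZNF264, ZNF805, ZNF460, ZNF543, ZNF304, ZNF547, ZNF548, ZNF17, ZNF749 and ZNF772) within 0.286 Mb at the start of cluster 10, all called in 6 of 6 libraries. Further genes of the q arm without a call stood alone or in runs of at most 3, such as ZNF583, ZNF667 and ZNF471 in cluster 9. Other genes without a peak at the start of the gene record included ZNF556 in cluster 1, ZNF558, ZNF177 and ZNF560 in cluster 2, ZNF491, ZNF439 and ZNF69 in cluster 3, ZNF682, ZNF90 and ZNF486 in cluster 4, ZNF565, ZNF382 and ZNF529 in cluster 6, ZNF575, ZNF155 and ZNF112 in cluster 7, ZNF577, ZNF614 and ZNF610 in cluster 8, ZNF444 in cluster 9, and ZNF211, ZNF418 and ZNF135 in cluster 10. Of the genes just named, ZNF583, ZNF565, ZNF529, ZNF575, ZNF614, ZNF444 and ZNF211 had a peak at another coding start in all 6 libraries and ZNF155 in 5. ZNF682, ZNF90 and ZNF486 also lay in a stretch without peaks, of 0.642 Mb. At the ends of the arms, ZNF554 (first of the p arm) and ZNF254 (last) were called in all 6 libraries, and ZNF536 (first of the q arm) and ZNF446 (last) in none, although another coding start had a peak in 1 library in ZNF536 and in all 6 in ZNF446.

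Each cluster held promoters of different strength. The highest and lowest genes called in all 6 libraries, by mean −log10 q, were ZNF57 (12.3) and ZNF554 (9.72) in cluster 1, ZNF699 (17.7) and ZNF559 (14.3) in cluster 2, ZNF564 (15.6) and ZNF799 (8.35) in cluster 3, and ZNF430 (34.6) and ZNF726 (9.35) in cluster 4. On the q arm they were ZNF302 (21.0) and ZNF30 (9.20) in cluster 5, ZNF527 (29.3) and ZNF570 (9.40) in cluster 6, ZNF576 (24.0) and ZNF224 (8.25) in cluster 7, ZNF160 (31.4) and ZNF83 (9.34) in cluster 8, ZNF787 (35.3) and ZNF71 (11.5) in cluster 9, and ZNF8 (31.8) and ZNF551 (9.69) in cluster 10. The lowest values have a floor set by peak calling and the clusters differ in their number of genes, so these extremes were not compared between clusters.

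Calls followed the CpG content of the start. The median ratio of observed to expected CpG was 0.716 in ZNF genes called in all 6 libraries, 0.708 in those called in 1 to 5 and 0.582 in those called in none. Of the 18 genes with a ratio under 0.4, 17 were called in no library and ZNF579 in 1. Between 0.4 and 0.6 (53 genes) 58.5% ± 2.92 were called, between 0.6 and 0.8 (134 genes) 68.4% ± 3.39, and at 0.8 and over (35 genes) 79.0% ± 2.33.

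The gap to the other genes of chromosome 19 differed with CpG content. Of the other genes, 383 (31.1%) had a ratio under 0.4, against 7.50% of the ZNF genes, and these were seldom called in either group, at 4.09% ± 1.00 of the 383 other genes and 0.926% ± 2.27 of the 18 ZNF genes. Between 0.4 and 0.6 the 196 other genes were called in 20.5% ± 1.66, with a range of 17.9% to 22.4% over the libraries that lay below that of the ZNF genes (54.7% to 62.3%). The 30 ZNF genes on other chromosomes in this bin were also called often, at 51.7% ± 2.79 (46.7% to 53.3%). Among genes with a ratio of at least 0.6, 70.6% of the ZNF genes and 71.0% of the others were called, a difference of −0.401 percentage points (exact two-sided sign-flip permutation test over 6 libraries, p = 0.21875). This pools bins of unlike weight, since 14.6% of the ZNF genes and 21.8% of the others had a ratio of 0.8 and over. Between 0.6 and 0.8, 68.4% of the ZNF genes and 64.7% ± 3.58 of the others were called. At 0.8 and over the shares were 79.0% and 80.0% ± 2.36. Among ZNF genes with a ratio of at least 0.6 the p arm stayed below the q arm, at 61.1% against 73.5%.

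**Figure D5:**
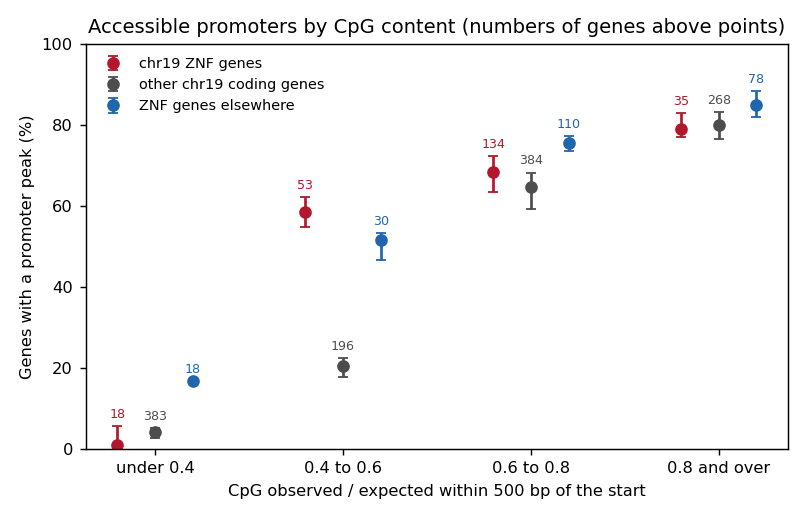
Percentage of genes with a promoter peak (y axis) by the ratio of observed to expected CpG within 500 bp of the gene start (x axis); points are means of the 6 libraries, bars their range, and the numbers are genes. Between 0.4 and 0.6 the chromosome 19 ZNF genes (red, 58.5%) lay above the other genes of the chromosome (dark grey, 20.5%), and above 0.6 the ranges of these groups overlapped. Between 0.4 and 0.6 the ZNF genes on other chromosomes were called in 51.7%.

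Of the 67 uncalled genes, 33 had CpG-rich starts, with a ratio of at least 0.6. Between 0.6 and 0.8, 28 of 134 ZNF genes were uncalled, beside 99 of 384 other genes of chromosome 19. At 0.8 and over, 5 of 35 ZNF genes and 36 of 268 other genes were uncalled. The 5 ZNF genes were ZNF536, ZNF229, ZNF541, ZNF677 and ZNF471. ZNF677, printed above, had a ratio of 0.928. Repeated sequence was uncommon, since 21 of the 240 windows had under 95% unique 75-base words, and the window had a median of 100% unique words both in called and in uncalled genes. The start chosen from the annotation also bore on the calls. For 29 of the 67 uncalled genes the start of the canonical transcript was over 1 kb from the start of the gene record, and 24 had a peak at another coding start in at least 1 library, 20 of them in all 6. There remained 43 of the 67 genes without a peak at any coding start.

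Short words of known promoter elements were counted within 250 bp of the start on both strands. The word CCGGAAG, which holds the core that ETS factors bind, stood at 47.1% of the chromosome 19 ZNF genes, 32.6% of the ZNF genes on other chromosomes and 15.1% of all protein-coding genes. It was present at 57.1% of the chromosome 19 ZNF genes called in all 6 libraries and at 28.4% of those called in none, and over all protein-coding genes the same shares were 25.3% and 5.15%. CCAATCA, an extended CCAAT box, stood at 30.4% of the ZNF genes and 9.37% of all genes, and at like shares of those called in all libraries (31.3%) and in none (31.3%), against 12.1% and 7.89% over all protein-coding genes. On other chromosomes it stood at 18.2% of the ZNF genes, and at 18.4% of those called in all 6 libraries and 20.8% of those called in none. GGGCGGG, the GC box of SP factors, stood at 55.4% of the ZNF genes, 54.8% of the other genes of chromosome 19 and 47.0% of all genes. It was present at 64.3% of the ZNF genes called in all 6 libraries and at 44.8% of those called in none, against 62.7% and 30.0% over all protein-coding genes. None of these words contains another, and a match is to letters only. CCGGAAG and GGGCGGG each hold a CpG and CCAATCA holds none. Since calls followed CpG content, a part of the words in the calls cannot be told apart from it here and was not tested. ZNF208 and ZNF728, without a peak, held all 3 words in the 200 bases printed above, as did ZNF493 with a peak.

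Most ZNF genes had no peak in the gene body. Beyond 1 kb from the start, 17.1% to 19.2% of the genes had a peak in the gene body in each library (background 34.0, 32.7, 35.0, 30.5, 34.1 and 33.0% of all protein-coding genes), and 17.4% to 20.6% of the other genes of chromosome 19 had one. A body peak was found in all 6 libraries for 35 ZNF genes (14.6%, background 24.6%) and in none for 188 (78.3%, background 56.9%), and for 12.3% and 73.6% of the other genes of chromosome 19, whose bodies were shorter, with a median of 12780 bp against 24451.5 bp. The ZNF bodies held 46 to 56 peaks per library, and 84.6% to 89.6% of them lay within 1 kb of the start of some protein-coding transcript, of the same gene or of a neighbour, against 63.9% to 70.5% in the other genes. Per 100 kb of gene body, with a peak counted once for each gene it overlapped, there were 0.684 peaks in the ZNF genes and 1.12 in the other genes of the chromosome, lower in 6 of 6 libraries (difference −0.431, SD 0.0892, exact two-sided sign-flip permutation test, adjusted p = 0.03125). Without the peaks near coding starts the values were 0.0922 and 0.384 per 100 kb (same exact permutation test, p = 0.03125).

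Away from coding starts, 5 to 8 body peaks per library were left, and over all libraries they made 12 regions in 11 genes. None lay in a last exon, where most zinc finger genes encode the fingers, and last exons made up only 866432 of the 7408521 bp of ZNF gene body. Only 4 of the regions were called in all 6 libraries. They were chr19:20970487-20971086 in an intron of ZNF66 (21 to 28 reads at the summit), chr19:21210988-21211729 in an intron of ZNF430 (16 to 29), chr19:23710407-23711199 in an exon of ZNF675 (38 to 54) and chr19:53104091-53104961 in an intron of ZNF83 (16 to 24). The first 3 lie in cluster 4, on either side of the block without peaks. The genes with the most body peaks were ZNF331, ZNF575, ZNF83, ZNF627 and ZNF586, with 1 to 3 in each library. In ZNF331 there were 2 in SDS replicate 1 and 3 in each of the other libraries.

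The study asked whether the reverse crosslinking step could be done without SDS and purification. The mean share of accessible ZNF promoters was 60.6% ± 1.47 (SD, n = 2) in SDS, 63.3% ± 2.36 in SDS-free purified and 64.2% ± 1.18 in SDS-free unpurified libraries. Over all protein-coding genes the mean shares rose in the same order of protocols, at 46.7%, 47.8% and 48.8%. At the ZNF promoters the SDS-free purified libraries exceeded the SDS libraries by 2.71 percentage points (exact two-sided permutation test of 2 libraries against 2, p = 0.67). The SDS-free unpurified libraries exceeded SDS by 3.54 (same exact test, p = 0.33) and SDS-free purified by 0.833 (p = 1), each of the 3 pairs with an adjusted p of 1. The smallest p that this exact test of 2 libraries against 2 can give is 0.33, so it can show neither a difference nor its absence. Shares with a body peak were 17.9%, 18.1% and 17.3% in the same order of protocols, with p = 1 in each pair (same exact test).

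Few ZNF promoters separated the protocols completely. ZNF615, ZNF562, ZNF43 and ZNF792 (1.67% of the ZNF genes, background 0.679% of all protein-coding genes) were called in both SDS-free purified libraries and in neither SDS library. ZNF615, ZNF562, ZNF829 and ZNF568 (1.67%, background 0.966%) were called in both SDS-free unpurified libraries and in neither SDS library. ZNF829 and ZNF568 start 25 bp apart and share 1 peak. In the other direction, ZNF20 was called in both SDS and no SDS-free purified library (0.417%, background 0.367%), and ZNF77 and ZNF681 in both SDS and no SDS-free unpurified library (0.833%, background 0.268%).

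Between the SDS-free protocols, ZNF880 and ZNF284 were called in both unpurified and no purified library (0.833%, background 0.639%), and no ZNF gene in both purified and no unpurified library (background 0.332%). ZNF615 had 18 and 14 reads at its summit in the SDS-free purified libraries and 16 and 18 in the unpurified ones, and ZNF562 had 14 and 21 reads and 13 and 15 reads in the same order. ZNF20 had 15 and 13 reads in the SDS libraries and 14 in SDS-free unpurified replicate 2. The median promoter peak of the called ZNF genes had 20 to 24 reads per library, and only the 21 reads of ZNF562, in SDS-free purified replicate 2, exceeded the median of their own library (20) among these values.

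The genes of the pathway through which KRAB zinc finger proteins act were mostly open. Of 24 genes, 17 had a promoter peak in all 6 libraries, 3 in some and 4 in none, and the mean share called was 73.6%, against 45.9% to 49.3% of all protein-coding genes. Most of the 24 had CpG-rich starts, with a ratio of at least 0.6. On chromosome 19, 70.6% of the ZNF genes and 71.0% of the other genes with such starts were called. Whether the share of the pathway genes goes beyond their CpG content was not tested. TRIM28, the corepressor that KRAB domains bind, had 36 to 54 reads at its summit. SETDB1, which writes H3K9me3, had 17 to 27 reads and its partner ATF7IP 30 to 49. The HP1 genes CBX5, CBX1 and CBX3 were called in all libraries, CBX3 with 65 to 74 reads and CBX1 with 15 to 25.

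The HUSH complex genes MPHOSPH8, TASOR and PPHLN1 and its partner MORC2 were also called in all 6 libraries, as were SUV39H1, SUV39H2, EHMT1, HDAC1, ATRX, DAXX and SMARCAD1. DNMT1 was called in 2 libraries, and CHD3 and EHMT2 in 1 each. CHD4, HDAC2, UHRF1 and ZFP57 had no peak within 1 kb of the start of the gene record. Of the 19 other zinc finger genes of chromosome 19 (ZFP, ZSCAN, ZIM and ZBTB genes, ZIK1 and PEG3), 5 were called in all 6 libraries (ZBTB7A, ZFP14, ZFP28, ZIK1 and ZSCAN22), 3 in some and 11 in none, and the mean share called was 38.6%, under the 45.9% to 49.3% of all protein-coding genes. The imprinted neighbours PEG3 and ZIM2 were among the latter.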

How the data were processed

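The 6 libraries were bulk ATAC-seq of fixed GM12878 cells, grouped by the sample labels, with purification of the SDS and SDS-free purified libraries taken from the study's methods. Per the submitters' processing notes the authors used hg19, Bowtie2 2.1.0, Picard 1.79 and MACS2, for which no version is named. Reads of low mapping quality, duplicates and those from mitochondria were discarded by the authors, who deposited 1 narrow peak list per library although the methods describe merging by condition. For each peak the deposited columns are a score (10 times the −log10 q, truncated), a ratio (fold over the local background at the summit) and the −log10 of p and of q. The largest q was 0.00974. The lists hold no read totals. Reads at the summit were solved from fold and p (tolerance 0.01 in −log10 p, met by 100% of a sample of every 10th peak), with medians of 20 to 22 per library, and limit the precision to counting error of that size.

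Gene starts were those of GENCODE version 44 on the same build, where all peaks lay inside the chromosomes, and bodies were the rest of the gene beyond 1 kb of the start. The 9 ZNF symbols of chromosome 19 with a letter after the digits or from readthrough were left out of both gene groups. The arms were split at the gap of chr19:24631783-27731782. CpG was counted within 500 bp of the start, and 75-base words on both strands of the genome (every 10th position in whole runs). Promoters were aligned with match 1, mismatch −1, gap −2 and free ends. Finger counts of the proteins were not made. The exact permutation tests used 1 value per library and were two-sided and adjusted by Benjamini-Hochberg. Since 6 libraries cannot give a p below 0.03125 and 5 cannot give one below 0.0625, leaving out a library always crosses the threshold of 0.05.

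Named genes were the 10 highest by mean −log10 q among those called in all 6 libraries, genes called in both libraries of 1 protocol and neither of another, the highest and lowest called and up to 3 uncalled genes of each cluster, the ends of the arms, the 5 with most body peaks, 6 genes of known role, and the lists. The members and lists were chosen with earlier results of these data known. The runs of called and uncalled genes, ZNF675, the uncalled genes of high CpG content, the words and the printed sequences were chosen after seeing the values. Calls made with Python 3.11.15, numba 0.67.0, pandas 2.3.3 and NumPy 2.4.6 were tested on simulated data and checked with bedtools 2.31.1.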

Additional observations from a re-analysis of the deposited data

How the results depend on the processing

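Of 170 alternative values, 130 were taken as unchanged, which for differences meant the same direction and side of the threshold. They include counts of genes, which have neither. They also include a promoter share difference of 0 (SDS-free unpurified minus purified, without SDS-free unpurified replicate 1), which has no direction. The 30 that crossed the threshold left out 1 library each, where p cannot fall below 0.0625. These gave 20.4 to 20.8 percentage points for the ZNF genes minus the other genes of chromosome 19, −8.69 to −8.19 against ZNF genes elsewhere, −11.0 to −9.70 for the p arm minus the q arm, −0.458 to −0.413 body peaks per 100 kb and 0.470 to 0.597 in median fold. Leaving out 1 library gave 113 to 119 genes called in all remaining libraries and 67 to 69 called in none. Promoter share differences between protocols then ranged from 1.04 to 4.38 (SDS-free purified minus SDS), 2.5 to 4.58 (SDS-free unpurified minus SDS) and −0.833 to 2.5 (SDS-free unpurified minus purified, negative without SDS-free purified replicate 2). Body share differences ranged from −0.833 to 1.25, −1.46 to 0.208 and −1.88 to 0.208 in the same order, so that each turned sign.

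The ZNF genes minus the other genes reversed to −0.401 with a CpG ratio of at least 0.6, an alternative added after seeing the data, and was 28.2 with canonical transcript starts, also added later. Against ZNF genes elsewhere the difference was −3.03 with those starts and −4.89 with any protein-coding transcript start, and the p arm minus the q arm was −18.0 with the latter. The median fold difference was 0.862 without genes that share a window. The count of genes called in none fell to 44 with any protein-coding transcript start, counted over all 240 genes and not only over the 67 uncalled at the gene start. Body share differences reversed to −0.208 (SDS-free purified minus SDS, body peaks near coding starts left out), and to 0.625 and 0.833 (SDS-free unpurified minus SDS, −log10 q of at least 5 and 30136 peaks per library). For promoters, SDS-free purified minus SDS was 4.17 with 30136 peaks per library and 1.46 with −log10 q of at least 5. SDS-free unpurified minus SDS was 2.29 with any protein-coding transcript start. SDS-free unpurified minus purified was 2.08 with −log10 q of at least 5, and 0.417 with windows of 500 bp or any protein-coding transcript start. With the replicate block the protocol differences were 2.71, 3.54 and 0.833 for promoters, as without it, with a smallest possible p of 0.5, and the block changed no call. The labels do not say what libraries of like number share beyond that number. Their deviations within a protocol correlated by 0.152, 0.0486 and 0.0934 over the 3 pairs of protocols. Replicate 1 had more peaks than replicate 2 in each protocol, and a factor shared by libraries of like number was not tested. The 2 replicates per protocol limit every comparison between protocols, and peaks near 10 reads at the summit are at the edge of detection.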
